A study of Homo sapiens with 8 samples.

Results

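Actin and its partners build the filaments that give a cell its shape, and the ERM proteins ezrin, radixin and moesin fasten those filaments to the plasma membrane. The genes described here are 39 genes of this system, found by symbol among the 58735 genes of the count table. They are 2 cytoplasmic actins, 8 genes of monomer binding and filament turnover, 3 subunits of the Arp2/3 complex, 4 tropomyosins, 6 genes of non-muscle myosin II, 7 crosslinkers and calponins, 5 focal adhesion and stress fibre genes, 3 ERM genes and the transcription factor SRF. The set was chosen because ACTB, ACTG1, FLNA and EZR leaned upward in SPOCK1-overexpressing cells. The difference between SPOCK1 and control libraries was therefore part of the choice, and it is given below for the 39 genes as a description. No p-value is given for any of them, and counts of those past a threshold stand only beside the share of all genes. Of the 39, all but CNN3 passed the filter on low counts, which kept 15790 genes.

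The cells were SW480, a human colorectal adenocarcinoma line. The SPOCK1 group stably overexpressed SPOCK1, a secreted proteoglycan of the extracellular matrix, with a flag tag. The control group carried the vector. According to the labels, cells were infected with lentivirus and selected in puromycin at 4 µg/ml, and growth was in DMEM with serum. Each group had 4 RNA-seq libraries, numbered 1 to 4. The labels give neither the promoter of the vector, nor whether a clone or a mixed population was used, nor whether libraries 1 to 4 were grown as independent cultures. The p-values below therefore set a difference between groups only against the spread of these libraries, which may be technical. An effect of SPOCK1 cannot be told apart from a difference between 1 selected population and another. In bulk RNA, more cells of a kind and more RNA per cell cannot be told apart either.

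Actin monomers bind thymosins, profilin and cofilin, join filaments at the fast-growing end, and leave after severing or depolymerisation. Arp2/3 starts branches, tropomyosins coat filaments and set which motors and severing factors bind, and non-muscle myosin II pulls on them. In epithelial cells, ezrin is the main ERM protein of the apical surface and of microvilli. The factor SRF, with its cofactors of the MRTF family, binds a promoter element called the CArG box and drives many actin genes. MRTF is itself held by free actin monomers, so this arm of transcription reads the monomer pool.

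The 2 cytoplasmic actins encode nearly the same protein from genes on different chromosomes, so their starts are shown to let a reader see what sets their reads apart. In GENCODE release 29 on GRCh38 their coding sequences of 1128 bases were 91.2% identical, with 99 differing bases and a longest identical stretch of 59 bases. The first 120 coding bases lie on the minus strand at chr7:5529538-5529657 for ACTB and at chr17:81512235-81512354 for ACTG1. Capitals mark the 21 bases that differ.
ACTB: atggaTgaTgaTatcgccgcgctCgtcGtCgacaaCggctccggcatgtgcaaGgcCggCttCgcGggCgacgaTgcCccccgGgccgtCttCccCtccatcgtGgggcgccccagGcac
ACTG1: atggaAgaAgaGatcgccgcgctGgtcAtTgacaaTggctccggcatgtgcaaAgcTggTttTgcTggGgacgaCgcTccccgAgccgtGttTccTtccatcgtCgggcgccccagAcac
The differences are scattered along the stretch rather than gathered in 1 place. Whether reads matching more than 1 gene were kept or dropped is not known from the sources read here. The 10 annotated ACTB pseudogenes held 0.0556% of the ACTB count, and the 20 ACTG1 pseudogenes held 0.0196% of the ACTG1 count.

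Promoter sequence was not read in choosing the genes. They were listed as actin genes, however, and SRF, which drives many of these, is among them. The share with its CArG box is therefore not independent of the list. RefSeq promoters on GRCh38.p14, from 250 bases before to 50 after the start, were matched by symbol for 35 of the 39 genes, with ACTB, ARPC1B, MYL9 and TAGLN not in the table. The CArG box was searched in its strict form, CC followed by 6 bases that are each A or T and then GG, which reads the same on both strands. It occurred in the promoters of 6 of the 35 genes (17.1%), against 1.6% of the 27305 genes in the promoter table and 1.45% of its 10755 genes that were also tested here. The windows below show the 6 genes, with the CArG box in capitals.
ACTG1: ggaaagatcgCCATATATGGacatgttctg
FLNA: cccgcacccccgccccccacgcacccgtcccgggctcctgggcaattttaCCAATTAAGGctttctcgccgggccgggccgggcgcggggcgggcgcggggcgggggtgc
TPM4: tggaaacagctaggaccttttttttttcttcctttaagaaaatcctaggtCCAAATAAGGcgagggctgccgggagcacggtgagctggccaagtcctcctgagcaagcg
CNN2: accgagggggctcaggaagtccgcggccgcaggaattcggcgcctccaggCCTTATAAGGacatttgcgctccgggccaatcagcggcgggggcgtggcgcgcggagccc
SRF: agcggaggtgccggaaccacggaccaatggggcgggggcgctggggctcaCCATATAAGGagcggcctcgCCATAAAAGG
ACTN1: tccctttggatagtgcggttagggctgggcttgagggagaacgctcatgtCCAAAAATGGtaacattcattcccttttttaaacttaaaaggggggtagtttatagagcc
They lie at chr17:81512874-81512903 (ACTG1, minus strand), chrX:154374669-154374778 (FLNA, minus), chr19:16067315-16067424 (TPM4, plus), chr19:1026469-1026578 (CNN2, plus), chr6:43171189-43171268 (SRF, plus) and chr14:68977678-68977787 (ACTN1, minus). SRF had a pair of boxes, whose first bases stood 30 and 10 bases before its RefSeq start. That start lies upstream of the GENCODE transcripts of SRF. The ACTG1 and FLNA boxes both stood 94 bases before their RefSeq starts. The ACTG1 window overlaps an annotated ACTG1 exon, and the FLNA window overlaps an exon of another gene, AC245140.3. The letters GGAATG, a core sequence of TEAD factors searched on both strands, occurred in 20% of the 35 genes and in 16.7% of all genes in the table. GGGCGG, a core sequence of Sp1-type factors that does not overlap the CArG box, occurred on either strand in 97.1% of the 35 and in 77.4% of the tested genes in the table. A match describes letters only and shows no binding.

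Within each group the 39 genes spanned a wide range of levels. On the TPM scale, which divides counts by the deposited exonic length, TMSB10, the thymosin that holds actin monomers, came first with 13243 ± 595 TPM in SPOCK1 libraries and 11991 ± 691 TPM in control libraries (SD, n = 4 each). ACTB followed with 10315 ± 977 TPM in SPOCK1 and 8761 ± 649 TPM in control libraries, then ACTG1 with 4797 ± 348 and 4027 ± 243 TPM. PFN1, ACTN4 and FLNA came next in both groups. The first 6 places were separated by gaps between the libraries' ranges in control cells, while in SPOCK1 cells the ranges of ACTN4 and FLNA overlapped. Ezrin and moesin sat in neighbouring places with overlapping ranges, EZR at 439 ± 19.4 TPM and MSN at 419 ± 34.6 TPM in SPOCK1 libraries, against EZR at 375 ± 38.3 TPM and MSN at 405 ± 32.5 TPM in control libraries. RDX stood far below both, at 23.8 ± 4.35 TPM in control cells.

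The bottom of the order held TPM2, TPM1 and TAGLN, best known from smooth muscle and other contractile or mesenchymal cells, beside ARPC1B and CNN3. The myosin light chain gene MYL9 stood above these, at 62.6 TPM in control libraries. In control libraries TPM2 averaged 4.35 TPM, TPM1 3.38 TPM and TAGLN, the calponin-like marker of smooth muscle, 2.71 TPM. ARPC1B, an isoform of the Arp2/3 subunit ARPC1, averaged 4.04 TPM, although 32.4% of its exonic bases are shared with another annotated gene, so its count is uncertain. CNN3 had 0, 3, 14 and 4 counts in SPOCK1 libraries 1 to 4, against 2, 2, 2 and 12 counts in control libraries 1 to 4. The count of 0 allows up to 0.0803 CPM at this depth, and the CNN3 values were too low to compare.

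**Figure D1:**
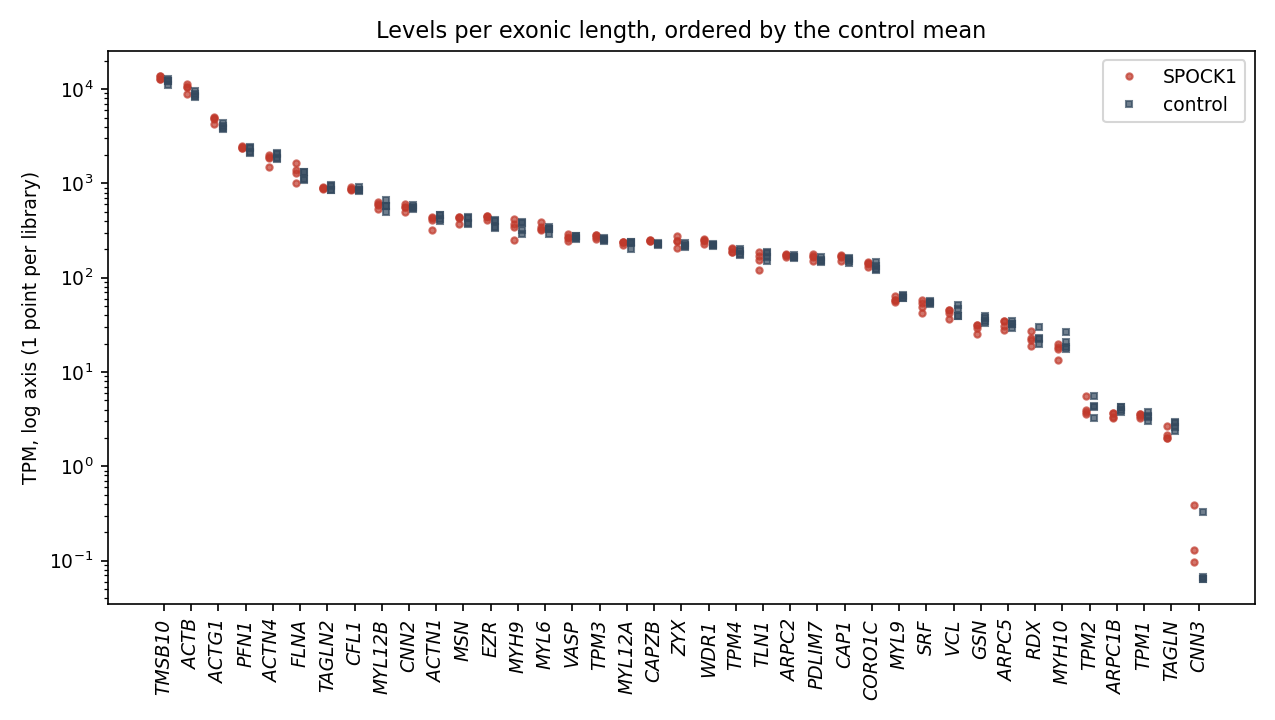
Level of the 39 genes in TPM on a log axis, with 1 point per library, SPOCK1 left of control for each gene and genes ordered by the control mean. TMSB10, ACTB and ACTG1 lead, the levels fall by steps to TAGLN, and CNN3 lies below the other 38 genes with 1 SPOCK1 library at 0 not drawn.

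In the comparison of SPOCK1 with control libraries, 28 of the 38 tested genes had a positive log2 fold change, against 49.2% of all tested genes. Their median log2 fold change was 0.08, and that of all tested genes was 0.00. The range ran from -0.24 to 0.31, with standard errors between 0.07 and 0.19. With edgeR's quasi-likelihood test and Benjamini-Hochberg adjustment over all genes, 0 of the 38 passed an adjusted p of 0.05, where 1.04% of all tested genes passed. At an unadjusted p under 0.05 the count was 10 upward and 1 downward of 38, against 13.7% of all genes in either direction and 5.48% upward. DESeq2 called 3 of the 38 upward (ACTB, ACTG1 and EZR), against 0.875% of its genes upward, and limma-voom called 0. Without the filter on low counts edgeR called ACTB and ACTG1 upward, against 0.417% of genes upward. The libraries of the groups did not overlap for 7 of the 38 genes. Of these, ACTG1, WDR1, CAPZB, TPM3, TPM4 and EZR were higher in every SPOCK1 library and GSN was lower in every SPOCK1 library, against 3.43% of all genes wholly higher and 4.8% wholly lower. Since the genes were picked from this same contrast, nothing is read from these counts.

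**Figure D2:**
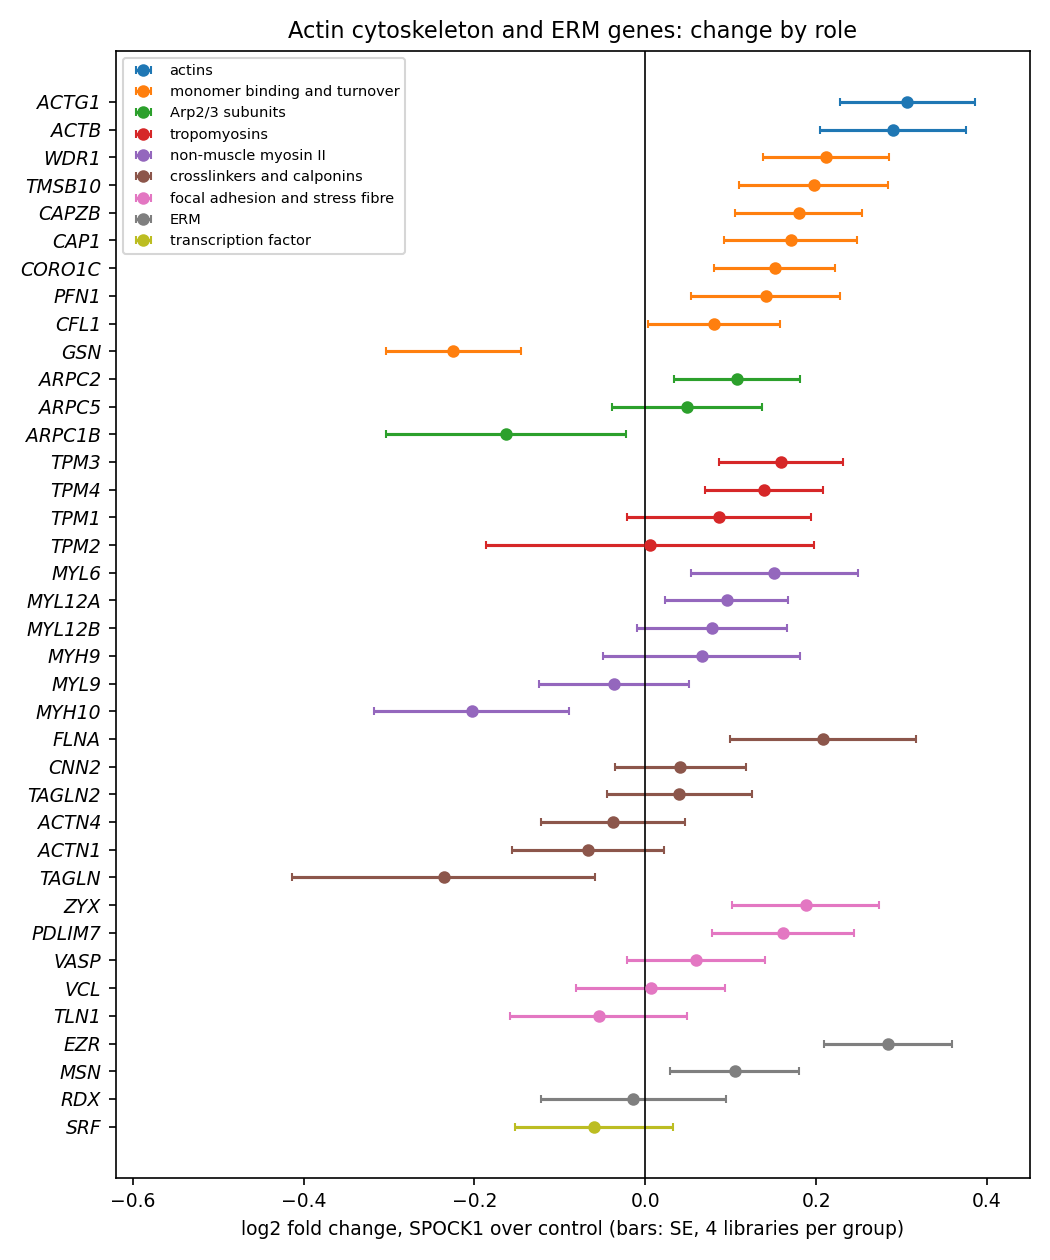
Log2 fold change of SPOCK1 over control for the 38 tested genes, grouped by role, with bars for the standard error from the edgeR fit on 4 libraries per group. Both actins and EZR lie furthest to the right at 0.28 to 0.31, and GSN, MYH10 and TAGLN lie furthest to the left at -0.20 to -0.24.

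The cytoplasmic actins, beta-actin from ACTB (chr7:5527147-5563784) and gamma-actin from ACTG1 (chr17:81509971-81523847), took 2 of the first 3 places in the set on the TPM scale. ACTB had 9996, 11442, 10867 and 12214 CPM in SPOCK1 libraries 1 to 4, against 8558, 10168, 8516 and 9175 CPM in control libraries 1 to 4. The groups overlapped, because SPOCK1 library 1 lay below control library 2, and the other 3 SPOCK1 libraries lay above all controls. The means were 11129.8 ± 936 CPM in SPOCK1 and 9104 ± 770.3 CPM in control libraries (SD over 4 libraries). This gave ACTB a log2 fold change of 0.29 ± 0.09 (SE).

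ACTG1 had 4101, 4458, 4311 and 4740 CPM in SPOCK1 libraries, against 3321, 3916, 3379 and 3622 CPM in control libraries. Every SPOCK1 library was above every control library, and library 2 was the highest control for both actins. The log2 fold change of ACTG1 was 0.31 ± 0.08, the highest of the set. ACTB made up 71.6 ± 0.52% of the counts of both actins in SPOCK1 libraries and 71.9 ± 0.28% in control libraries, so the balance between the actins differed by less than the spread between libraries.

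Among the 8 genes of monomer binding and filament turnover, 7 had positive values and the median log2 fold change was 0.16. WDR1, which helps cofilin take filaments apart, had 570.3, 611, 565 and 626 CPM in SPOCK1 libraries, against 475, 532, 499 and 542 CPM in control libraries. All SPOCK1 libraries lay above all controls, and the log2 fold change was 0.21 ± 0.07. CAPZB, a subunit of the capping protein that closes filament ends, had 259, 251, 234 and 244 CPM in SPOCK1 libraries, against 202, 228, 211 and 232 CPM in control libraries. Its groups were separated by a narrow gap, and its log2 fold change was 0.18 ± 0.07.

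TMSB10 had 2180, 2096, 1838 and 1960 CPM in SPOCK1 libraries, against 1507, 1794, 1782 and 1961 CPM in control libraries. Its groups overlapped at control library 4, and its log2 fold change was 0.20 ± 0.09, or 0.13 without control library 1. CAP1 and CORO1C, a monomer recycling factor and a coronin, had log2 fold changes of 0.17 and 0.15, profilin gene PFN1 0.14 (0.08 without control library 1) and cofilin gene CFL1 0.08. These 4 overlapped between the groups. CAP1 shares 31.2% of its exonic bases with another gene and CFL1 19.0%, so both counts are uncertain. Of the 39 genes, 8 share more than 10%. The same limit therefore holds for TPM1 (21.4%), ACTN4 (14.2%), MYL6 (13.9%), TAGLN (11.4%) and VCL (11.1%).

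GSN, which encodes the severing and capping protein gelsolin, had the opposite sign. It had 89.7, 100.5, 100.3 and 109 CPM in SPOCK1 libraries, against 118, 124, 112 and 112 CPM in control libraries. Every SPOCK1 library lay below every control library. The means were 99.8 ± 7.72 CPM in SPOCK1 and 117 ± 5.39 CPM in control libraries, a log2 fold change of -0.22 ± 0.08.

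The Arp2/3 subunits lay close to 0, with log2 fold changes of 0.11 ± 0.07 for ARPC2, 0.05 ± 0.09 for ARPC5 and -0.16 ± 0.14 for ARPC1B. The count of ARPC1B was low, and it is uncertain because of the shared exonic bases. All 3 overlapped between groups.

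Tropomyosin counts came almost wholly from TPM3 and TPM4. TPM3 had 749.6, 731, 661 and 663 CPM in SPOCK1 libraries, against 604, 641, 627 and 641 CPM in control libraries. TPM4 had 519, 538, 525 and 498 CPM in SPOCK1 libraries, against 483, 491, 451 and 463 CPM in control libraries. Neither gene overlapped between the groups, and the log2 fold changes were 0.16 ± 0.07 for TPM3 and 0.14 ± 0.07 for TPM4. TPM3 held 56.5 ± 1.40% of tropomyosin counts in SPOCK1 and 56.2 ± 1.13% in control libraries, so the mix of the family differed by less than its spread. TPM1 and TPM2 had log2 fold changes of 0.09 ± 0.11 and 0.01 ± 0.19.

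**Figure D3:**
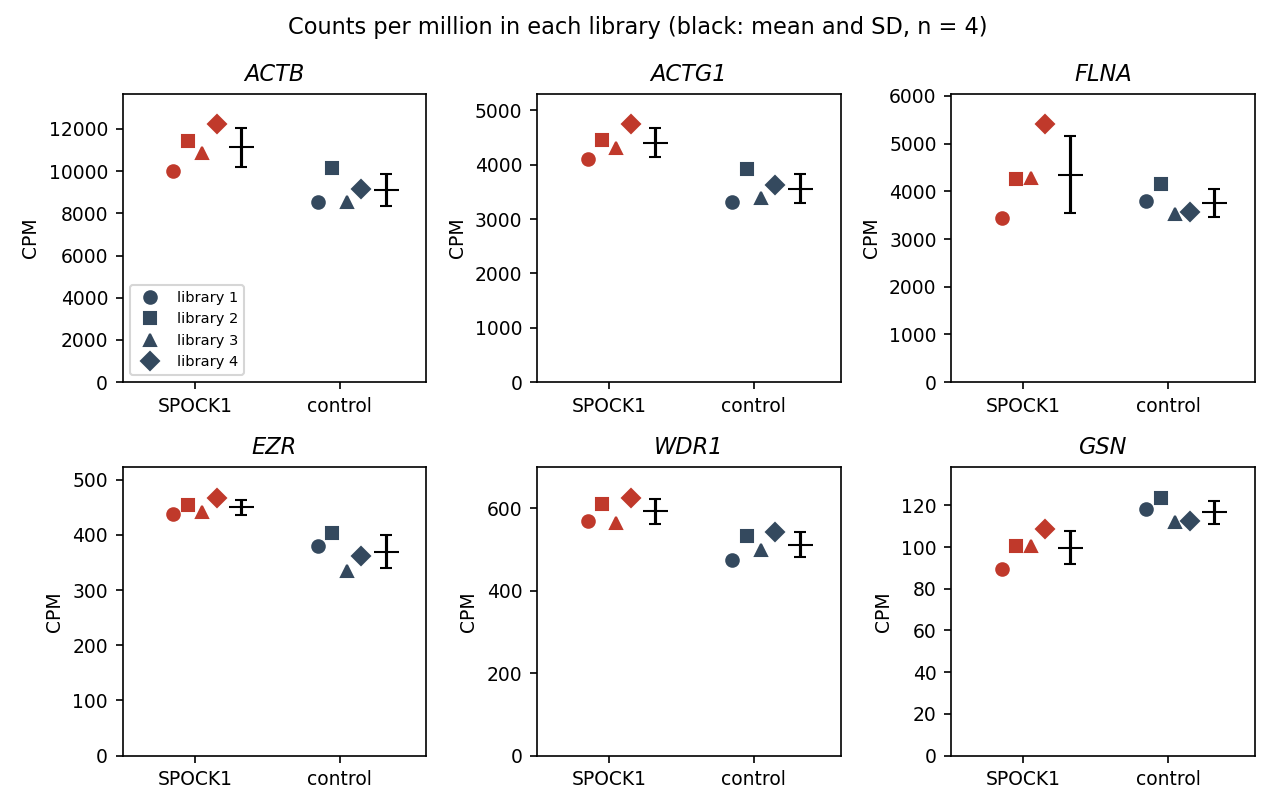
CPM on TMM-scaled library sizes of 6 genes, with 1 marker per library, SPOCK1 left of control, black lines for the mean and SD of 4 libraries, and each axis starting at 0. ACTG1, EZR and WDR1 separate with SPOCK1 higher and GSN with SPOCK1 lower, while ACTB and FLNA overlap.

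Non-muscle myosin II is built from heavy chains (MYH9, MYH10), essential light chain (MYL6) and regulatory light chains (MYL9, MYL12A, MYL12B). MYH9 had 727, 968, 979 and 1163 CPM in SPOCK1 libraries, against 969, 1025, 854 and 818 CPM in control libraries. SPOCK1 libraries 1 and 4 were the lowest and the highest of all 8, and the log2 fold change was 0.07 ± 0.12. MYH10, the other heavy chain, had 38.3, 48.3, 51.7 and 51.9 CPM in SPOCK1 libraries, against 65.2, 56.0, 48.5 and 49.2 CPM in control libraries, with overlap and a log2 fold change of -0.20 ± 0.11. The MYH10 value was -0.11 without control library 1 and -0.12 without SPOCK1 library 1.

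MYH9 made up 95.2 ± 0.35% of the heavy-chain counts of this pair in SPOCK1 libraries and 94.4 ± 0.49% in control libraries. The regulatory light chain genes MYL12A and MYL12B, neighbours on chromosome 18, are 95.7% identical over their coding sequence with only 22 differing bases, so reads may be split between them. Their log2 fold changes were 0.10 ± 0.07 and 0.08 ± 0.09. MYL6 had 0.15 ± 0.10 and MYL9 -0.04 ± 0.09.

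Crosslinkers and calponins were split, with 3 of 6 tested genes positive and a median log2 fold change of 0.00. FLNA encodes filamin A, which joins filaments into networks, and lies at chrX:154348524-154374638. It had 3444, 4263, 4277 and 5403 CPM in SPOCK1 libraries, against 3804, 4159, 3522 and 3568 CPM in control libraries. SPOCK1 library 1 was the lowest of all 8 and SPOCK1 library 4 the highest, so the groups overlapped widely. The means were 4347 ± 804.5 CPM in SPOCK1 and 3763 ± 291 CPM in control libraries, a log2 fold change of 0.21 ± 0.11. Without SPOCK1 library 4 the value of FLNA was 0.09, and without SPOCK1 library 1 it was 0.30.

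The alpha-actinins ACTN1 and ACTN4, which bundle filaments, had log2 fold changes of -0.07 ± 0.09 and -0.04 ± 0.08. CNN2 and TAGLN2 both had 0.04. TAGLN had 2.70, 2.42, 2.29 and 3.22 CPM in SPOCK1 libraries, against 3.16, 3.38, 2.78 and 3.19 CPM in control libraries, and its log2 fold change of -0.24 ± 0.18 was the lowest of the set with the groups overlapping.

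Among focal adhesion and stress fibre genes, ZYX had the highest value. It encodes zyxin, a protein of adhesions under tension, and had 226, 265, 249.98 and 297 CPM in SPOCK1 libraries, against 213, 245, 222 and 231 CPM in control libraries. SPOCK1 library 1 fell inside the control range, and the log2 fold change was 0.19 ± 0.09. PDLIM7 had 0.16 ± 0.08, the filament elongation factor VASP 0.06 ± 0.08, vinculin gene VCL 0.01 ± 0.09 and talin gene TLN1 -0.05 ± 0.10, all with overlap.

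Within the ERM family, EZR was among the genes for which the set was picked. EZR (chr6:158765741-158819412) had 437, 455, 441 and 467 CPM in SPOCK1 libraries, against 380.1, 403, 334 and 361 CPM in control libraries. All SPOCK1 libraries lay above all controls, with means of 450.0 ± 13.5 and 369.6 ± 29.4 CPM (SD over 4 libraries) and a log2 fold change of 0.28 ± 0.08. MSN had 698, 786, 764 and 816 CPM in SPOCK1 libraries, against 716, 768, 672 and 693 CPM in control libraries, with overlap and a log2 fold change of 0.10 ± 0.08.

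RDX had 61.7, 57.1, 67.3 and 49.2 CPM in SPOCK1 libraries, against 70.4, 58.1, 56.5 and 52.8 CPM in control libraries, and its log2 fold change was -0.01 ± 0.11. The values of MSN and RDX lay within their errors of each other, and differences between the 3 genes were not tested. Of the counts of the 3 ERM genes, EZR took 36.5%, 35.0%, 34.7% and 35.0% in SPOCK1 libraries, against 32.6%, 32.8%, 31.4% and 32.6% in control libraries. The EZR share was above the control range in every SPOCK1 library. Per exonic length, EZR made up 49.9 ± 0.92% of the family in SPOCK1 and 46.7 ± 0.73% in control libraries. MSN made up 47.5 ± 1.13% in SPOCK1 and 50.4 ± 0.75% in control libraries. On this scale EZR was ahead in each SPOCK1 library and MSN was ahead in each control library. By counts without length, MSN was ahead of EZR in every library of both groups, so the change of lead depends on the lengths used. Since EZR was picked over these same libraries, its higher share restates the choice. The coding sequences of EZR and MSN are 73.5% identical, with no identical stretch over 32 bases.

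**Figure D4:**
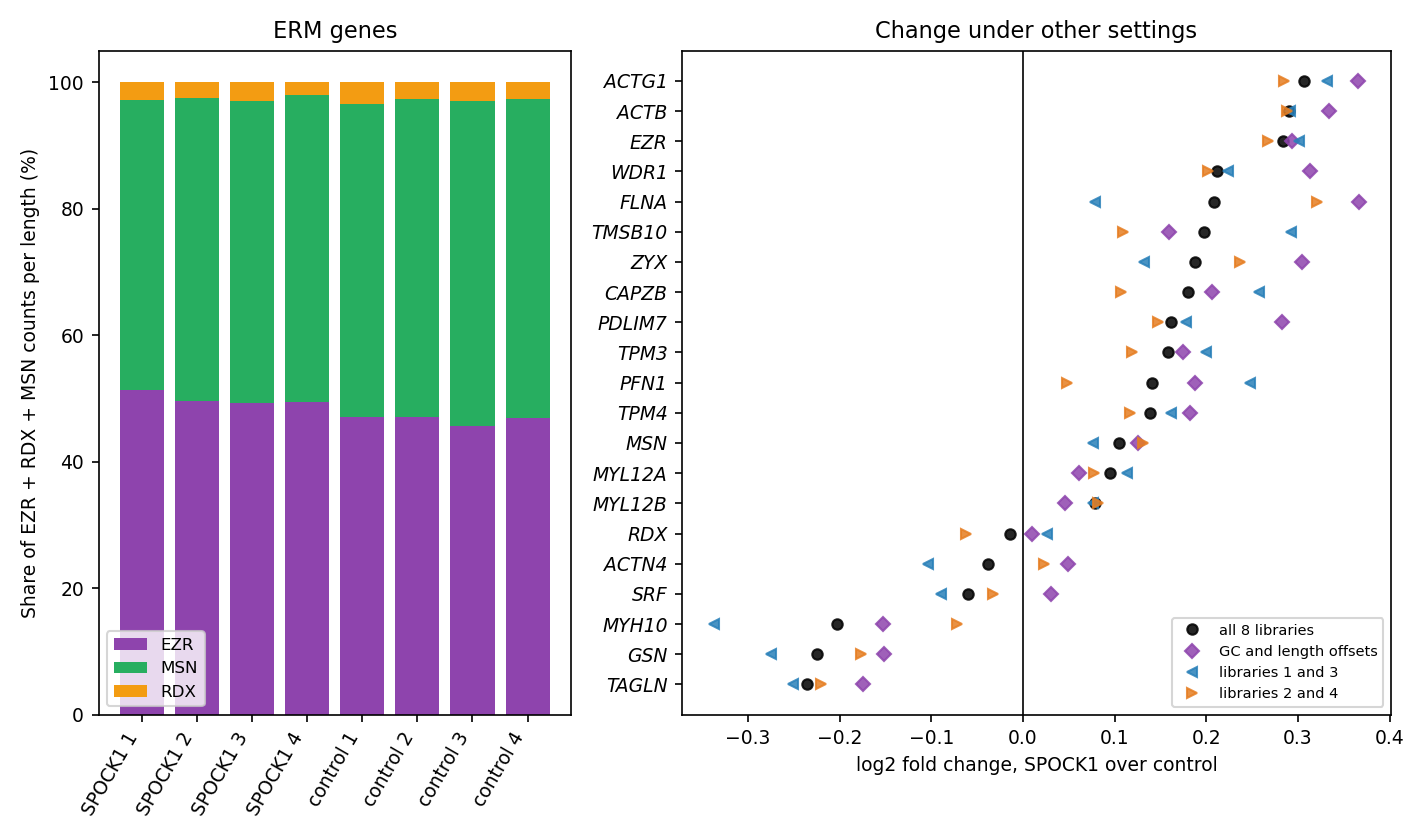
The left panel stacks the shares of EZR, MSN and RDX in the ERM counts per length, in percent, for each library with SPOCK1 left of control. The right panel plots log2 fold changes of 21 genes from all 8 libraries, with GC and length offsets, and in each pair of libraries, where FLNA runs from 0.08 to 0.37 and EZR from 0.27 to 0.30.

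SRF itself had 56.3, 62.7, 66.7 and 75.0 CPM in SPOCK1 libraries, against 62.9, 71.0, 68.2 and 69.6 CPM in control libraries, with a log2 fold change of -0.06 ± 0.09. The spread among SPOCK1 libraries covered the control range. The filtered edgeR fit of all 8 libraries without offsets called 1.04% of all tested genes. It called none of the 6 genes with a CArG box in their promoter. Their log2 fold changes were 0.31 for ACTG1, 0.21 for FLNA, 0.14 for TPM4, 0.04 for CNN2, -0.06 for SRF and -0.07 for ACTN1. The values of CNN2, SRF and ACTN1 were within their standard errors of 0. ACTG1 passed upward without the filter, against 0.417% of genes, and in DESeq2, against 0.875% of its genes. With the GC and length offsets described below, ACTG1 and FLNA passed upward, against 2.32% of all genes. The values with these offsets were 0.37 for ACTG1, 0.37 for FLNA and 0.18 for TPM4. They were 0.09 for CNN2, 0.03 for SRF and 0.00 for ACTN1. Since ACTG1 and FLNA were among the genes for which the set was picked, nothing is read from these calls.

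SPOCK1 library 4 had the highest value of all 8 libraries for 16 of the 38 genes, against 14.3% of all tested genes, among them ACTB, ACTG1, FLNA, MYH9, TLN1, VCL, ZYX, EZR and MSN. SPOCK1 library 1 had the highest value for 9 genes, TMSB10, CAP1, CORO1C, CAPZB, ARPC2, ARPC5, TPM3, MYL6 and MYL12A. It also had the lowest value for 9 others, which were GSN, MYH9, MYH10, FLNA, ACTN1, ACTN4, VCL, TLN1 and SRF. Both counts are close to the shares over all tested genes, of which this library was highest for 21.4% and lowest for 22.8%. Control library 1 was lowest for 18 of the 38 genes, against 17.7% of all tested genes. Relative to a gene's mean over all 8 libraries, the median of the 38 genes on the log2 scale was 0.02, 0.06, 0.01 and 0.11 in SPOCK1 libraries 1 to 4, against -0.12, 0.03, -0.06 and -0.02 in control libraries. Control library 2 lay above SPOCK1 libraries 1 and 3 by this measure. All 39 genes together made up 3.84 ± 0.27% of all counts in SPOCK1 libraries and 3.50 ± 0.16% in control libraries, with overlapping ranges of 3.48% to 4.13% and 3.36% to 3.73%.

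**Figure D5:**
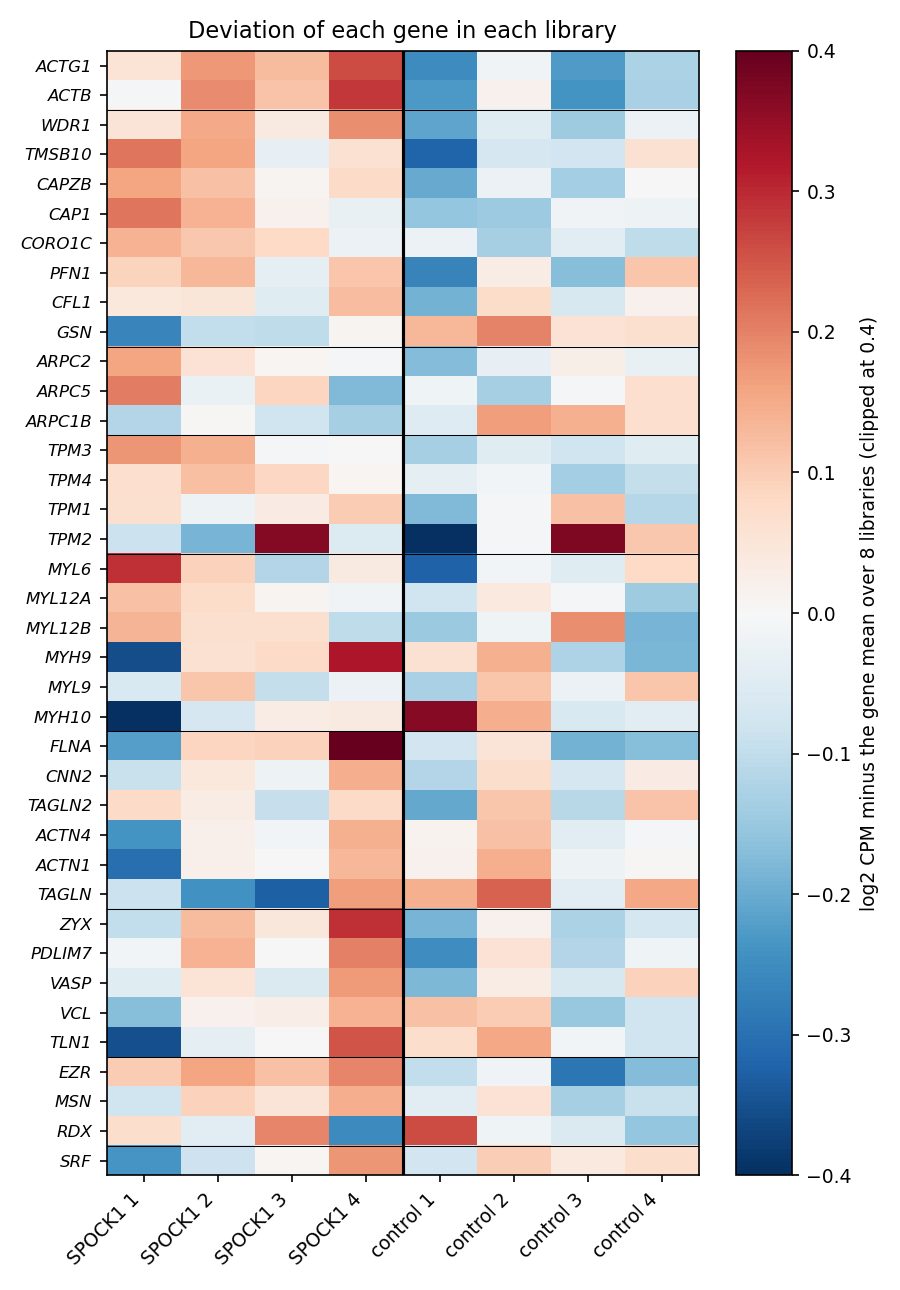
Deviation of each of the 38 tested genes from its mean over all 8 libraries, in log2 CPM, with 1 line of cells per gene, colours limited at 0.4 on either side, genes ordered by role and SPOCK1 libraries left of control libraries. SPOCK1 library 1 shows low FLNA, MYH9, TLN1 and ACTN1 beside high TMSB10 and MYL6, and SPOCK1 library 4 is highest for 16 genes.

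How gene values followed GC content also differed between libraries, and its part in the values of the actin genes was not tested. The slope of a gene's deviation on its GC content, in log2 units per unit of GC fraction, was -1.15, 0.0448, -0.79 and 1.10 in SPOCK1 libraries 1 to 4, against -0.53, 0.90, -0.63 and 1.06 in control libraries. The GC slope was thus low in libraries 1 and 3 and higher in libraries 2 and 4 of both groups, and its difference between groups did not pass (exact permutation test, two-sided, p = 0.6, adjusted p = 0.8 over 4 library measures). When the edgeR fit was given GC and length offsets per library, 34 of 38 genes had positive values with a median of 0.13, against 0.03 for all genes. Of all 15790 tested genes, 7761 had positive values without the offsets and 8874 with them. With the offsets 8 genes passed upward (ACTB, ACTG1, WDR1, CAPZB, FLNA, ZYX, PDLIM7 and EZR), where 2.32% of all genes passed upward. MYL9, ACTN1, ACTN4, TLN1, RDX and SRF had negative values without the offsets and values between 0.00 and 0.07 with them.

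Both pairs of libraries were also compared separately. In libraries 1 and 3, 28 of 38 genes had positive values with a median of 0.12, and 0 of 38 passed in edgeR where 0.0494% of all genes did. In libraries 2 and 4, 27 of 38 had positive values with a median of 0.07, and 0 passed where 0.881% of all genes did. The log2 fold change was 0.29 and 0.29 for ACTB, 0.33 and 0.29 for ACTG1 and 0.30 and 0.27 for EZR. Since these genes were picked over the same 8 libraries, a positive value in both pairs restates the choice. FLNA had 0.08 in libraries 1 and 3 and 0.32 in libraries 2 and 4, and MYH9 had -0.09 and 0.21.

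The libraries held between 35643585 and 42812951 counts. SPOCK1 itself had 221 ± 31.1 CPM in SPOCK1 libraries and 0.096 ± 0.072 CPM in control libraries, where control library 2 had 0 counts, which allows up to 0.0811 CPM. The share of counts from ribosomal RNA genes, mitochondrial ones and pseudogenes included, was 0.612 ± 0.045% in SPOCK1 and 0.715 ± 0.017% in control libraries. The groups did not overlap (exact permutation test, two-sided, p = 0.0286, the smallest that 4 against 4 allows, adjusted p = 0.114 over 4 measures). The part of this share in the values of the actin genes was not tested. Of 11 markers of colorectal epithelium, 4 (KRT20, CDX1, CDH17 and GPA33) were under 1 CPM. Their sum was 14512 to 16204 CPM in SPOCK1 and 12926 to 15829.9 CPM in control libraries. Most of it came from the keratin genes KRT8, at 8812 CPM in SPOCK1 and 8287 CPM in control libraries, and KRT18, at 4719 CPM in SPOCK1 and 4518 CPM in control libraries. EPCAM was at 219.7 CPM in SPOCK1 and 219 CPM in control libraries. Of the 8 that were tested, 4 had positive values, the median log2 fold change was -0.08, and 3 were downward at an unadjusted p under 0.05. ELF3 alone passed in edgeR, with 4.10 ± 0.325 CPM in SPOCK1 and 6.62 ± 0.606 CPM in control libraries (log2 fold change -0.69 ± 0.14, adjusted p = 0.0192). The call of ELF3 was lost without SPOCK1 library 2 or 3 or control library 2 or 4, where the log2 fold change was between -0.64 and -0.72. Of 12 fibroblast and smooth muscle markers, 10 were under 1 CPM, and their sum was 10.0 to 11.1 CPM in SPOCK1 and 9.17 to 11.6 CPM in control libraries. Of 8 leukocyte and endothelial markers, 7 were under 1 CPM, and their sum was 1.45 to 1.69 CPM in SPOCK1 and 1.11 to 1.62 CPM in control libraries.

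Other genes of the actin system were examined in 6 lists of 196 genes that are not among the 39, of which 166 were tested. In edgeR 0 rose and 1 fell, which is 0.602% of the 166, against 1.04% of all tested genes. Of the 166, 73 had positive values, with a median log2 fold change of -0.04. At an unadjusted p under 0.05 the counts were 7 upward and 19 downward, or 26 of 166, against 13.7% of all tested genes. DESeq2 called 2 upward and 2 downward of 157, against 2.76% of its genes. The fit with GC and length offsets called 5 upward and 2 downward, against 3.94% of all genes, and limma-voom called 0 upward and 1 downward.

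The gene that fell was CYFIP2 (chr5:157266079-157395595), a subunit of the WAVE complex that switches on Arp2/3, in the list of nucleation factors. CYFIP2 had 12.1, 13.7, 14.5 and 14.1 CPM in SPOCK1 libraries, against 19.1, 18.0, 21.8 and 18.2 CPM in control libraries. The groups did not overlap. The means were 13.6 ± 1.05 CPM in SPOCK1 and 19.3 ± 1.71 CPM in control libraries, and the log2 fold change was -0.50 ± 0.11 (adjusted p = 0.0293, edgeR). Leaving out any library other than SPOCK1 library 4 ended this call, with adjusted p between 0.0508 and 0.105, while the log2 fold change stayed between -0.44 and -0.54 over all 8 such fits. The other 33 tested genes of the 36 nucleation factors did not pass.

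In the other 5 lists, 0 genes passed in edgeR. The list of 29 turnover and capping genes had 26 tested, of which 19 had positive values with a median of 0.08, 2 were upward and 3 downward at an unadjusted p under 0.05. Its smallest p belonged to TMSB4X, a thymosin gene related to TMSB10, with 434, 360.4, 356 and 339 CPM in SPOCK1 libraries, against 259.9, 308, 319.6 and 299 CPM in control libraries. Its groups did not overlap and its log2 fold change was 0.33 ± 0.09 (adjusted p = 0.104, edgeR). TMSB4X passed in DESeq2, without the filter and with the GC and length offsets. DESeq2 also called CFL2, a cofilin gene named here after its value was seen, and limma-voom called 0 in the list.

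Of 40 tested adhesion and crosslinking genes, 2 were upward and 4 downward at an unadjusted p under 0.05, DESeq2 called 1 downward and limma-voom 0. The smallest p belonged to FSCN1, the gene of the bundling protein fascin found in filopodia, with 175 ± 18.3 CPM in SPOCK1 and 218 ± 15.6 CPM in control libraries and a log2 fold change of -0.31 ± 0.09 (adjusted p = 0.106, edgeR). FSCN1 passed in DESeq2, without the filter and without SPOCK1 library 4. With the GC and length offsets its log2 fold change was -0.19 and it did not pass (adjusted p = 0.0601, edgeR).

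ERM partners are the membrane proteins, scaffolds and kinases with which ezrin and its relatives work. Of 26 tested, 1 was upward and 4 downward unadjusted, and DESeq2 and limma-voom called 0. Their median log2 fold change was -0.05, and CD46 had the smallest p at a log2 difference of -0.25 ± 0.09 (adjusted p = 0.207, edgeR). Of 29 tested targets and cofactors of SRF and MRTF outside the 39 genes, 9 had positive values with a median of -0.11, 1 was upward and 4 downward unadjusted, and DESeq2 and limma-voom called 0. FILIP1L had the smallest p in that list, with 0.364 ± 0.317 CPM in SPOCK1 and 1.01 ± 0.429 CPM in control libraries and a log2 fold change of -1.44 ± 0.51 (adjusted p = 0.219, edgeR). Of 27 muscle actin and myosin genes, 20 were under 1 CPM and 11 were tested, with 1 downward unadjusted and 0 in DESeq2 and limma-voom. MYH14, a non-muscle myosin heavy chain of epithelia placed in that list, showed -0.43 ± 0.15 on the log2 scale (edgeR, adjusted p = 0.21). The MYH14 value was -0.26 with the GC and length offsets (edgeR, adjusted p = 0.183).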

How the data were processed

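RNA was measured in 8 libraries of SW480 cells, 4 per group by their titles. The deposited values are raw counts of reads for each gene. The submitters' processing notes list featureCounts 1.5.0-p3, HISAT2 2.0.5 and CASAVA. Not given in the sources used here are the build, strand setting and treatment of multiply matching reads, so reads of overlapping genes and near-identical copies may be shared between them. The deposited coordinates and lengths match GENCODE release 29 on GRCh38.

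Total counts were 35643585 to 42812951 per library. Genes were filtered with filterByExpr (minimum count 10, minimum total 15), scaled by TMM and fitted with edgeR 4.0.16 (R 4.3.3) quasi-likelihood tests without covariates, adjusted by Benjamini-Hochberg over 15790 genes. CPM use the scaled sizes, and TPM use the deposited lengths. Floors take 0 counts as up to 3 and cover counting error only. The 39 genes and all lists were chosen with earlier results of these data known. Named were SPOCK1, the actins, FLNA, the ERM genes, SRF, the 3 highest and 3 lowest changes, the 5 highest levels, 2 similar pairs, and in each other list the genes that passed or else the smallest p. Further genes are described by role, chosen after their values were seen. Alternatives were other scalings, filters, offsets for GC content and length (splines with 5 degrees of freedom), a replicate block, limma-voom (limma 3.58.1), DESeq2 1.42.0, each library left out, and library pairs. The fits were tested on simulated data. One planned gene list is not reported here. Identity of proteins was planned and not analysed here. Coding sequences were compared instead.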

Additional observations from a re-analysis of the deposited data

Results flagged for a closer look

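In 100 sets of 4 libraries (library measures and gene values by group), 1 value stood apart by Dixon's criterion for 4 values, and chance sets apart about 1 in 20 such sets. This was the total count of control library 4, at 41343049 counts, where the other control libraries had 36390186 to 37191599 counts. No value of the 38 tested actin and ERM genes stood apart in this way, including those of FLNA and MYH9 in SPOCK1 library 1. This does not cover CNN3, which was not tested and had 2, 2, 2 and 12 counts in control libraries 1 to 4.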

How the results depend on the processing

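The median log2 fold change of the actin and ERM genes stayed positive in all 19 alternative fits, between 0.07 and 0.13. With the GC and length offsets the median of all genes was 0.03. Since the genes were picked from this same contrast, a positive median in these fits restates the choice. The 165 genes called over all tested became 399 without the filter, 622 with GC and length offsets, 378 in DESeq2 and 8 in libraries 1 and 3, and 89 to 237 with 1 library left out. Of the 39 genes, 2 passed upward without the filter, 8 with the offsets and 3 in DESeq2. The upward shares over all genes in these fits were 0.417%, 2.32% and 0.875%. In each leave-one-out fit 0 of the 39 passed. Turnover and capping genes gave 2 without the filter, 1 with offsets, 2 in DESeq2 and 0 to 1 leaving 1 library out. Nucleation factors gave 0 to 1 leaving 1 out and 0 in each library pair. Adhesion and crosslinking genes gave 2 without the filter, 3 with offsets, 1 in DESeq2 and 0 to 1 leaving 1 out. Called with offsets were TMSB4X, PXN, TES, MICAL2 and TGFB1I1 upward and CYFIP2 and ENAH downward, most named after their values were seen. Targets of SRF gave 1 without the filter and 2 with offsets. The causes were not tested.

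The labels do not say whether equal replicate numbers mark a shared culture or day. Same-numbered deviations correlated at -0.157, 0.0886, 0.114 and 0.176. Without the values for unequal numbers beside them, these cannot decide it. The GC slope was low in libraries 1 and 3 of both groups. With the replicate block 115 of 15790 tested genes passed, and 0 of the 39. By CPM without length, ACTB came 1st, FLNA 2nd, TMSB10 5th, MSN 10th and EZR 18th in control libraries. Depth limits CNN3, TAGLN, TPM2 and ARPC1B most.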
